A study of Arabidopsis thaliana with 8 samples.

Results

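COR47 (AT1G20440) and LTI30 (AT3G50970, also named XERO2) are dehydrins on chromosomes 1 and 3, described here by their transcript levels under salicylic acid (SA). They were chosen by name, as the probe sets annotated to exactly 1 of these genes. Each gene had 1 such probe set, that is, 2 of the 22746 probe sets tested. RNA of complete seedlings of *Arabidopsis thaliana*, aged 2 weeks and treated for 24 h in the light, was hybridised to the Affymetrix ATH1 chip. The 4 groups were *npr1-1* with 2 mM SA, *npr1-1* with water, wild-type Col-0 with 2 mM SA and Col-0 with water, each with 2 arrays given as biological replicates. The *npr1-1* line is a mutant of NPR1, through which many SA-responsive genes are activated, and no other allele or agent is given for any group. How many seedlings were pooled for each RNA is not stated in the sources.

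Dehydrins are hydrophilic proteins of the late embryogenesis abundant class, which stay soluble during water loss and can associate with membranes and other proteins. In vegetative tissue their transcripts accumulate on cold, drought or abscisic acid (ABA), through CBF/DREB1 factors that bind the CRT/DRE element and through ABF factors that bind the ABRE element. COR47 is an acidic dehydrin with a serine stretch and LTI30 is a basic one without it, and both are known as cold-induced genes.

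The deposited values are on the log2 scale, on which a difference of 1 is a fold of 2. The median of the tested probe sets lay between 1.34 and 1.48 on the 8 arrays. Pearson's r over all probe sets was 0.994 to 0.996 for arrays of 1 group and 0.922 to 0.966 between groups. The SA effects of the 2 genotypes ran against each other across all probe sets (r = −0.50). UGT76B1, which encodes an SA glucosyltransferase, was at 3.01 and 2.92 where the label is *npr1-1* SA and at 8.88 and 8.92 where it is *npr1-1* water. In Col-0 it was at 9.57 and 9.75 under SA and at 4.71 and 4.87 in water. Every comparison that uses *npr1-1* arrays, the genotype comparisons and the interaction included, depends on the water and SA labels of those 4 arrays, which were kept. Values with these labels exchanged, an alternative chosen after seeing the data, are given beside the results of COR47 and LTI30.

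The 2 dehydrins did not move alike. COR47 was 0.73 higher on the log2 scale with SA by the *npr1-1* labels (1.66-fold) and fell by 1.55 with SA in Col-0 (2.94-fold). LTI30 was lower with SA in both genotypes, and fell by 1.28 in *npr1-1* (2.43-fold) and by 0.67 in Col-0 (1.59-fold). Under SA the *npr1-1* arrays stood above Col-0 for COR47 and below Col-0 for LTI30.

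COR47 was at 7.76 and 7.83 on the *npr1-1* SA arrays and at 7.20 and 6.93 on the *npr1-1* water arrays. In Col-0 it was at 6.31 and 6.44 under SA and at 7.85 and 8.01 in water. The SA and water arrays did not overlap in either genotype, and the Col-0 SA arrays were the lowest of all. How many of all probe sets separate in this way was not counted. The group means were 7.79 ± 0.0546 in *npr1-1* SA, 7.06 ± 0.191 in *npr1-1* water, 6.38 ± 0.0858 in Col-0 SA and 7.93 ± 0.117 in Col-0 water (SD, n = 2 each). In the order of these levels Col-0 water stood first, *npr1-1* SA next, then *npr1-1* water and Col-0 SA. The gap between the first neighbours, *npr1-1* SA and Col-0 water, was 0.0139 between their nearest arrays, which is less than the SD of either group. The other neighbours were 0.56 and 0.49 apart at their nearest arrays.

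LTI30 was at 3.77 and 3.61 on the *npr1-1* SA arrays and at 4.92 and 5.02 on the *npr1-1* water arrays. In Col-0 it was at 4.09 and 4.23 under SA and at 4.87 and 4.77 in water. By the labels kept, all 4 SA arrays lay below all 4 water arrays, which was not the case for COR47. With the *npr1-1* labels exchanged this would not hold for LTI30. The share of all probe sets with such a separation was not computed. The group means were 3.69 ± 0.117 in *npr1-1* SA, 4.97 ± 0.0738 in *npr1-1* water, 4.16 ± 0.104 in Col-0 SA and 4.82 ± 0.0717 in Col-0 water (SD, n = 2 each). The highest group was *npr1-1* water, and Col-0 water, Col-0 SA and *npr1-1* SA followed. The nearest arrays of the 2 water groups were 0.0438 apart, less than the SD of either, whereas the 2 SA groups were 0.31 apart at their nearest arrays.

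**Figure D1:**
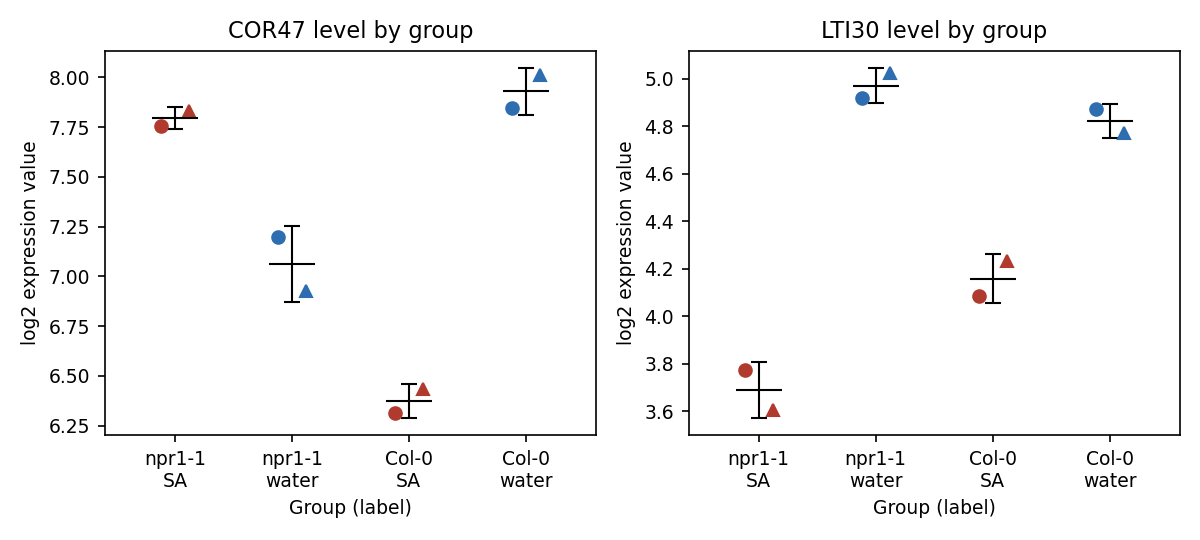
Log2 expression values of COR47 (left) and LTI30 (right) on the 8 arrays by labelled group, with circles for replicate 1, triangles for replicate 2, red for SA and blue for water; black bars give the mean and SD of 2 arrays, and the axes do not start at 0. COR47 is lowest on the Col-0 SA arrays, at 6.31 and 6.44, while LTI30 is lowest on the *npr1-1* SA arrays, at 3.77 and 3.61.

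With SA in Col-0, both dehydrins were called lower at an adjusted p under 0.05 from limma. The background was 13.4% of all probe sets called lower and 10.1% called higher. The COR47 difference was −1.55 (standard error 0.133, 95% interval −1.85 to −1.26, adjusted p = 6.11e-06), and 331 probe sets (1.46%) fell by as much. The LTI30 difference was −0.67 (standard error 0.124, 95% interval −0.94 to −0.39, adjusted p = 0.00195), and 1966 probe sets (8.64%) fell by as much. Both members thus fell with SA in the wild type, and the COR47 fall was among the larger ones of the array.

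By the *npr1-1* labels, COR47 was called higher and LTI30 was called lower with SA. Of all probe sets, 14.8% were called higher and 13.4% lower in this comparison. The difference was 0.73 for COR47 (standard error 0.133, 95% interval 0.44 to 1.03, adjusted p = 0.00126 from limma). It was −1.28 for LTI30 (standard error 0.124, 95% interval −1.55 to −1.01, adjusted p = 1.26e-05), and 668 probe sets (2.94%) had as large a fall. COR47 thus shared its pair of calls, higher by the *npr1-1* labels and lower in Col-0, with 7.17% of all probe sets. LTI30, called lower in both genotypes, shared its pair with 1.44%. With the *npr1-1* labels exchanged, the *npr1-1* differences turn to −0.73 for COR47 and 1.28 for LTI30, so that COR47 would be the gene lower in both genotypes and LTI30 the one with opposite directions. Calls of lower in *npr1-1* and higher in Col-0 held for 4.95% of probe sets, and calls of higher in both genotypes for 0.646%.

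The SA effect differed between the genotypes for both dehydrins, and in opposite directions. The interaction (the SA effect in *npr1-1* minus that in Col-0) was 2.29 for COR47 (standard error 0.188, 95% interval 1.88 to 2.70, adjusted p = 2.20e-06 from limma), and 547 probe sets (2.40%) had one as high. For LTI30 it was −0.62 (standard error 0.175, 95% interval −1.0 to −0.23, adjusted p = 0.0178), that is, a larger fall by the *npr1-1* labels than in Col-0. With these labels exchanged the interactions were 0.82 for COR47 and 1.95 for LTI30 (adjusted p = 0.0113 and 1.98e-05 from limma). Interactions were called higher for 16.9% and lower for 15.0% of all probe sets. The LTI30 interaction was no longer called without Col-0 water replicate 2, Col-0 SA replicate 2, *npr1-1* water replicate 2 or *npr1-1* SA replicate 2, with values of −0.57, −0.54, −0.56 and −0.53 (adjusted p between 0.0603 and 0.0696 from limma).

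**Figure D2:**
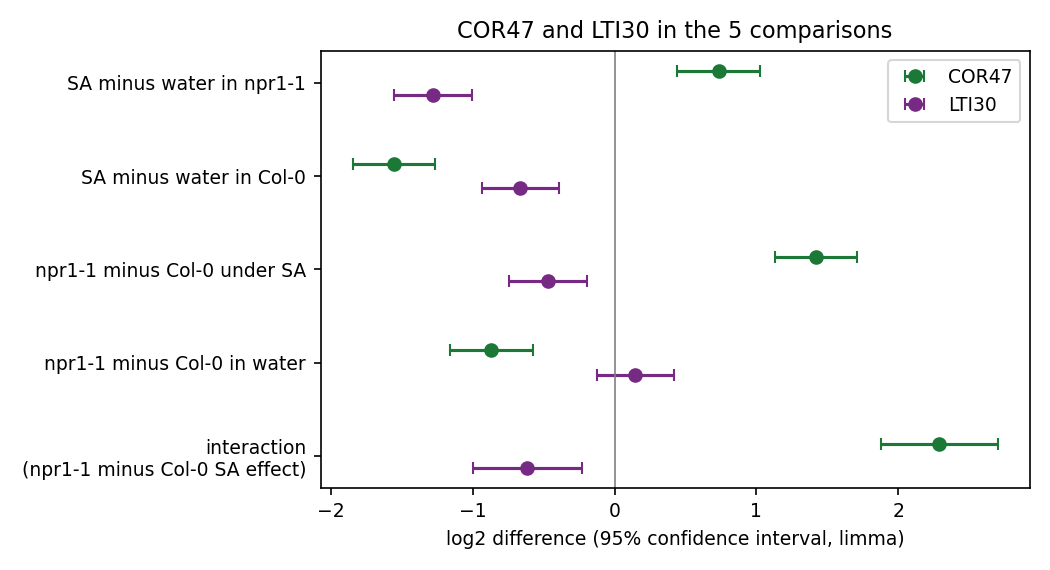
Log2 differences of COR47 (green) and LTI30 (purple) in the 5 comparisons, as points with 95% confidence intervals from limma over all 8 arrays; the vertical line marks no difference. COR47 lies on opposite sides of the line for SA in *npr1-1* (0.73) and in Col-0 (−1.55), while LTI30 lies to the left of it in both (−1.28 and −0.67) and its interval crosses the line for the genotypes in water.

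Between the genotypes under SA, COR47 was 1.42 higher in *npr1-1* than in Col-0 (standard error 0.133, adjusted p = 3.77e-06 from limma), and LTI30 was lower by 0.47 (log2 difference −0.47, standard error 0.124, adjusted p = 0.00951). Of all probe sets 20.9% were called higher and 18.4% lower in *npr1-1* under SA, that is, 4757 and 4188. After centring of the arrays on their medians these numbers were 4008 and 5897. The LTI30 difference was not called without Col-0 SA replicate 2 (−0.40, adjusted p = 0.0704) or without *npr1-1* SA replicate 2 (−0.39, adjusted p = 0.0781 from limma). With the *npr1-1* labels exchanged, the differences under SA were 0.69 for COR47 and 0.81 for LTI30 (adjusted p = 0.00195 and 0.000379 from limma), so that LTI30 turned direction.

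In water, COR47 was lower in *npr1-1* than in Col-0 by 0.87 (log2 difference −0.87, standard error 0.133, adjusted p = 0.000432 from limma). LTI30 did not pass the test in water, with a difference of 0.15 (95% interval −0.13 to 0.42, adjusted p = 0.48). With the *npr1-1* labels exchanged, the differences in water were −0.14 for COR47, which did not pass (adjusted p = 0.549), and −1.13 for LTI30 (adjusted p = 3.12e-05 from limma). The background in water was 14.2% called higher and 12.7% called lower. The water comparison and the SA comparison of each genotype share arrays, so these values stand side by side and are not independent of each other.

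Of the 10 Arabidopsis dehydrins listed, 6 had a probe set of their own, COR47 and LTI30 included. Here and below, a gene counts as measured where a probe set was annotated to it alone. A gene not measured may still have probes on the chip. Of all probe sets, 14.8% were called higher and 13.4% lower with SA in *npr1-1*, and 10.1% higher and 13.4% lower in Col-0. Between the genotypes the shares were 20.9% and 18.4% under SA and 14.2% and 12.7% in water. For the interaction they were 16.9% and 15.0%. The share of probe sets called in at least 1 of the 5 comparisons was not computed. Besides COR47 and LTI30, only AT1G54410 (HIRD11), a small histidine-rich dehydrin, was called in any comparison. It was at 7.63 and 7.80 in *npr1-1* SA and at 8.31 and 8.37 in *npr1-1* water, and at 7.49 and 7.15 in Col-0 SA and at 7.48 and 7.57 in Col-0 water. By the *npr1-1* labels it was lower with SA by 0.62 (log2 difference −0.62, adjusted p = 0.00521 from limma), and its difference of −0.20 in Col-0 did not pass. The call in *npr1-1* was lost without *npr1-1* SA replicate 1 (−0.53), and also without moderation of the variances (adjusted p = 0.0621 from the unmoderated fit). Under SA, AT1G54410 was 0.40 higher in *npr1-1* than in Col-0 (adjusted p = 0.0412 from limma). That call was lost in 7 of the 8 fits without 1 array, with differences of 0.22 to 0.57. Among these are the fits without a water array, which is not in this comparison, where the difference stayed at 0.40. In water it was 0.81 higher in *npr1-1* than in Col-0 (adjusted p = 0.000968). The other 3, LEA (AT2G21490), AT4G38410 and AT4G39130, had group means between 0.20 and 0.80, below the median of the arrays, and were called in no comparison. The median SA effect of the 6 was −0.04 in *npr1-1* and −0.09 in Col-0, against 0.00076 and 0.02 over all probe sets. ERD10, which follows COR47 on chromosome 1, and XERO1, which follows LTI30 on chromosome 3, are dehydrins without a probe set named for them alone, and whether their RNA reaches the COR47 and LTI30 probes was not tested.

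Of 22 cold-induced genes 5 were measured, of which 1 rose and 1 fell with SA by the *npr1-1* labels, and 2 rose and 0 fell in Col-0 (background 14.8% higher and 13.4% lower in *npr1-1*, 10.1% higher and 13.4% lower in Col-0; limma; 1 was lower in Col-0 at an unadjusted p under 0.05, and 0 without moderation; median SA effects −0.03 in *npr1-1* and 0.15 in Col-0). COR27, a cold gene under control of the circadian clock, was at 3.63 and 3.18 in *npr1-1* SA and at 3.71 and 3.6 in *npr1-1* water, and at 3.97 and 3.86 in Col-0 SA and at 2.87 and 2.98 in Col-0 water. It rose by 0.99 with SA in Col-0 (adjusted p = 0.000499 from limma), the opposite of both dehydrins there. By the labels kept, its interaction was −1.24 (adjusted p = 0.000777 from limma). AT4G33980 had group means between 0.78 and 1.43, near or below the median of the arrays. It was lower with SA by the *npr1-1* labels (log2 difference −0.54, adjusted p = 0.0109 from limma) and rose by 0.64 in Col-0 (adjusted p = 0.00483). Without moderation of the variances neither was called (adjusted p = 0.078 in *npr1-1* and 0.0638 in Col-0). The call in *npr1-1* was lost in fits without *npr1-1* water replicate 2 (−0.45, adjusted p = 0.0881) or *npr1-1* SA replicate 2 (−0.38, adjusted p = 0.111). DI21, a drought-induced gene, was at 5.16 and 5.0 in *npr1-1* SA and at 4.45 and 4.20 in *npr1-1* water, and at 3.44 and 3.45 in Col-0 SA and at 3.71 and 3.97 in Col-0 water. Like COR47 it was higher with SA by the *npr1-1* labels (0.76, adjusted p = 0.00128), and its difference of −0.39 in Col-0 did not pass (adjusted p = 0.0606 from limma). COR15A and COR15B, chloroplast proteins of cold acclimation, had group means between 0.29 and 0.47 and were called in no comparison.

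Of 13 cold regulators 1 was measured, STZ (AT1G27730, a zinc finger repressor). By the labels kept, it fell with SA in both genotypes, as LTI30 did. The fall was 0.42 in *npr1-1* (log2 difference −0.42, adjusted p = 0.0301) and 0.68 in Col-0 (log2 difference −0.68, adjusted p = 0.00218 from limma). With the *npr1-1* labels exchanged, STZ would not be lower in both genotypes. Calls of lower in both genotypes held for 1.44% of all probe sets. Its call in *npr1-1* was lost without *npr1-1* water replicate 1 (−0.32), *npr1-1* SA replicate 1 (−0.37) or *npr1-1* SA replicate 2 (−0.47), and its interaction of 0.26 did not pass. Without moderation the STZ call in *npr1-1* was lost as well (adjusted p = 0.0867 from the unmoderated fit). Of 26 ABA- and drought-induced genes 4 were measured, and with SA 0 were called in *npr1-1* by limma (1 was higher at an unadjusted p under 0.05, and 0 were called without moderation) and 1 was called lower in Col-0. Of all probe sets, 14.8% were called higher and 13.4% lower in *npr1-1*, and 10.1% higher and 13.4% lower in Col-0. The gene called in Col-0 was LEA4-5, a late embryogenesis abundant protein, at 1.04 and 1.14 in *npr1-1* SA, 0.72 and 0.81 in *npr1-1* water, 1.06 and 1.03 in Col-0 SA and 1.71 and 1.27 in Col-0 water. Its call in Col-0 (−0.45, adjusted p = 0.0478 from limma) was lost in 7 of the 8 fits without 1 array, and over the 8 the difference lay between −0.67 and −0.23. In the fits without an *npr1-1* array, which is not in this comparison, the difference stayed at −0.45. The other 3, LEA18, AT3G15670 and AT3G17520, had group means between 0.19 and 0.59 and were called in no comparison. The lists of 14 genes of ABA synthesis and breakdown and of 36 ABA receptors and signaling genes had 0 members with a probe set annotated to them alone. In the platform annotation 8730 of the 22746 probe sets had no gene symbol listed and 503 had several. Whether such probe sets read these genes was not examined, and the ABA pathway upstream of the dehydrins is not analysed here.

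**Figure D3:**
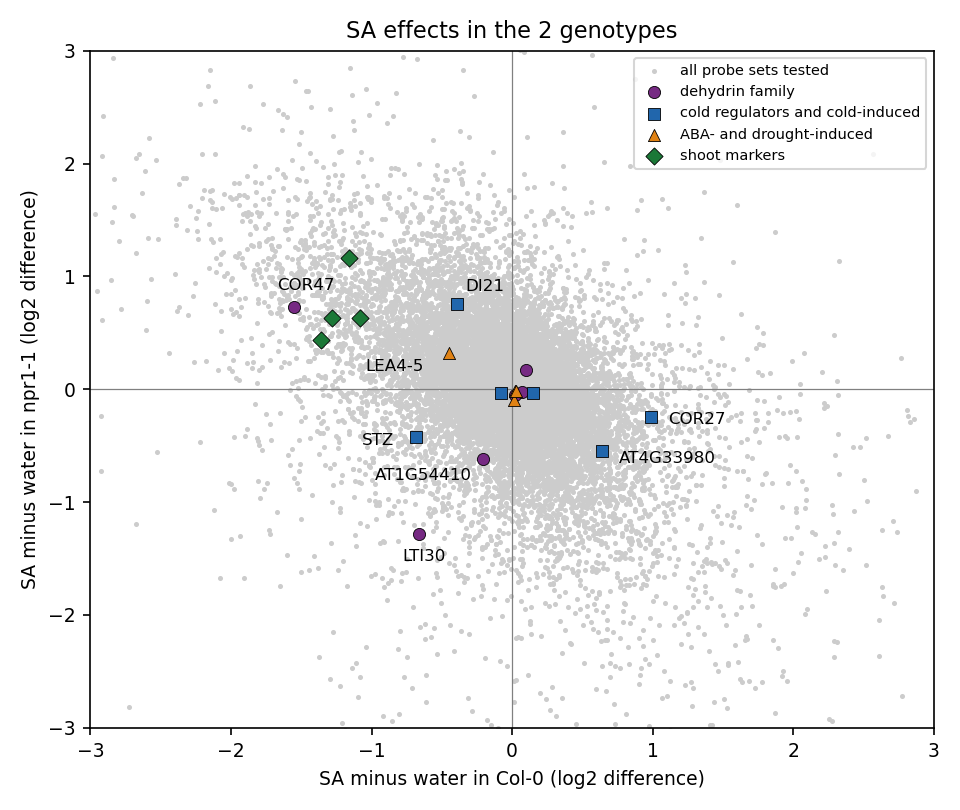
SA effect (SA minus water, log2 difference) in *npr1-1* (vertical) against that in Col-0 (horizontal) for all probe sets tested (grey) and for the measured members of the lists (colours), with 135 probe sets beyond the axes not drawn. COR47 lies at the upper left (0.73 in *npr1-1*, −1.55 in Col-0) near the shoot markers, and LTI30 at the lower left (−1.28 in *npr1-1*, −0.67 in Col-0).

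Of 9 shoot markers 4 were measured, the Rubisco activase RCA, the antenna protein LHCB4.1 and the photosystem subunits PSAN and PSBY, and with SA all 4 were called higher by the *npr1-1* labels and lower in Col-0, as COR47 was and as were 7.17% of all probe sets. The *npr1-1* call of PSBY (0.44) was lost in fits without *npr1-1* water replicate 1 (0.41), *npr1-1* water replicate 2 (0.48) or *npr1-1* SA replicate 2 (0.35, adjusted p = 0.165 from limma). Without moderation the *npr1-1* calls of PSBY and LHCB4.1 were lost (adjusted p = 0.0902 and 0.053). Their mean level was 9.59 to 9.71 on the *npr1-1* SA arrays and 8.89 to 8.98 on the *npr1-1* water arrays, and 8.15 to 8.20 on the Col-0 SA arrays and 9.36 to 9.43 on the Col-0 water arrays. Their median SA effect was 0.63 in *npr1-1* and −1.22 in Col-0, against 0.73 and −1.55 for COR47. Of 9 root markers 1 was measured, EXPA7 of the root hair, with group means between 0.50 and 0.66, and it was called in no comparison. In complete seedlings, fewer cells of a type and less RNA per cell cannot be told apart, and the part of shoot tissue in the COR47 differences was not tested.

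The 3′ probe sets of the control transcripts read higher than the 5′ ones on all arrays, and this gap moved with SA in Col-0. For actin it was 4.40 to 5.60 in Col-0 SA and 3.32 to 4.00 in Col-0 water, for GAPDH 0.88 to 1.46 and 0.58 to 0.69, and for ubiquitin 1.38 to 1.55 and 0.98 to 1.08. In *npr1-1* only the ubiquitin gap separated the treatments, at 1.42 to 1.87 with SA and 0.77 to 1.15 with water. With the larger ubiquitin gap under SA, COR47 was higher in *npr1-1* and lower in Col-0, while LTI30 was lower in both genotypes. Its part in either result was not tested.

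The genes most like each member over the 8 arrays differed between COR47 and LTI30. They were picked by Pearson's r on these same arrays, so that their SA differences follow those of the member by the choice. Among 3970 genes whose SD was at least 0.5 times that of COR47, AT3G15690 (r = 0.995), AT3G07310 (r = 0.993), AT5G60680 (r = 0.989), AT1G72820 (r = 0.989) and AT5G02160 (r = 0.987) were the most alike, and 200 genes had r above 0.9. Their SA differences were 0.54 to 1.51 in *npr1-1* and −2.39 to −1.47 in Col-0. For LTI30, compared with 4906 genes, they were AT3G44630 (r = 0.985), AT5G45350 (r = 0.983), AT1G69360 (r = 0.982), AT2G24600 (r = 0.978) and Hsp70-2 (r = 0.972), a cytosolic chaperone, and 42 genes had r above 0.9. Their SA differences were −1.78 to −0.73 in *npr1-1* and −0.92 to −0.43 in Col-0. These correlations are descriptions over 8 arrays that fall into 4 groups. None of the genes named is on the cold or ABA lists. Few genes of those lists were measured, and several of them were dim and flat, so this absence says little.

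**Figure D4:**
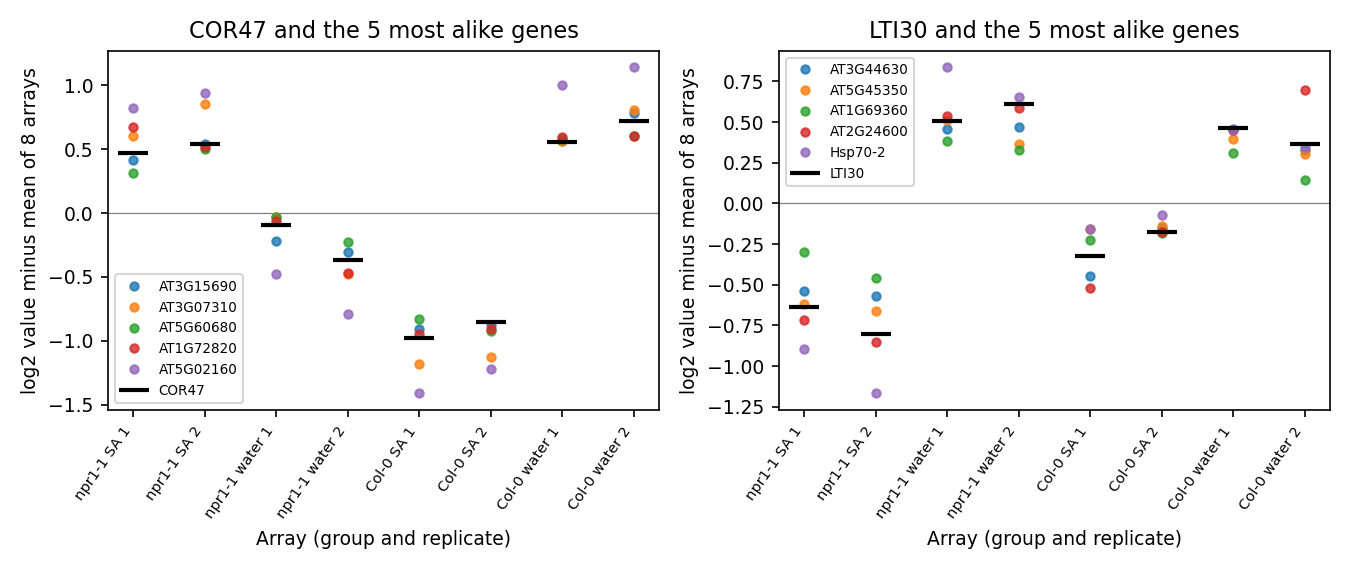
Log2 values minus the mean of the 8 arrays for COR47 (left, black bars) and LTI30 (right, black bars) and for the 5 genes most like each (coloured points), by array. The genes like COR47 are lowest on the Col-0 SA arrays, and those like LTI30 are low on all 4 SA arrays. Both sets were picked by Pearson's r with the member on these same arrays.

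Of the 10 measured genes nearest to COR47, 1 was called higher and 1 lower with SA in *npr1-1*, and likewise 1 and 1 in Col-0. Of the 10 nearest to LTI30, 1 was called higher and 3 lower in *npr1-1*, and 1 higher and 0 lower in Col-0. The background was 14.8% higher and 13.4% lower in *npr1-1* and 10.1% higher and 13.4% lower in Col-0, and the neighbours were added after values had been seen.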

How the data were processed

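Total RNA of complete seedlings was labelled with biotin and hybridised to ATH1 chips, 1 array per sample. The authors deposited log2 values, 1 per probe set and array. RMA in affylmGUI, after GCOS, is what the paper's methods give for background correction, normalization and summarization, while Affymetrix Expression Console stands in the submitters' processing notes; neither source gives a version. The precision is limited by the small number of arrays, and no detection calls were used. Whether a constant was taken off all values is not known.

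The 64 control probe sets were excluded, and all 22746 others were tested without a filter. Of these, 13513 had 1 gene symbol in the platform annotation, 503 had several and 8730 had none listed. Genes were named only from probe sets with 1 symbol, with symbols updated from the TAIR10.1 gene table (13436 found), and the probe set with the highest mean stood for a gene (13355 genes). The 4 group means were fitted over all 8 arrays with limma 3.58.1 in R 4.3.3 (lmFit, contrasts.fit, eBayes), and p-values were adjusted by Benjamini and Hochberg over all probe sets. Calls are at an adjusted p under 0.05. Nothing in the labels beyond the words biological replicate says how replicates were grown, so the tests measure the spread between these samples.

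The members and lists were chosen with earlier results of these data known. The genes named are COR47, LTI30, all measured members of the dehydrin and cold lists, up to 4 measured genes of each other list by the smallest interaction p, and the 5 most alike genes of each member by Pearson r. The shoot and root markers and the 2 measured SA-response genes serve as checks. For SA-response genes 2 of 11 were measured, UGT76B1 and GRX480, and both were higher with SA in Col-0 and lower with SA by the npr1-1 labels. This pair of calls held for 4.95% of all probe sets. Promoter motifs and protein sequences are not analysed here. The alternatives tried comprised quantile normalization, median centring, a replicate block, removal of the 25% of probe sets with the lowest means, a robust variance trend, unmoderated variances, fits to the 4 arrays compared, and leaving out each array.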

Additional observations from a re-analysis of the deposited data

Results flagged for a closer look

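The SA effect differed between *npr1-1* and Col-0 for both dehydrins by the interaction term of the fit. For COR47 the difference of the SA effects was 2.29 (adjusted p = 2.20e-06 from limma), with SA above water by the *npr1-1* labels and SA below water in Col-0. For LTI30 it was −0.62 (adjusted p = 0.0178 from limma), with SA below water in both genotypes, and 4 of the 8 fits without 1 array did not call it. Both rest on the *npr1-1* labels (0.82 and 1.95 with these exchanged), under which the SA-response genes UGT76B1 and GRX480 had SA differences of −5.94 and −4.86.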

How the results depend on the processing

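The 10 differences of COR47 and LTI30 were computed again under the alternatives that keep the labels, which gave 148 values. All 148 kept their direction, 142 kept their side of the threshold and 6 lost the call. The kept direction was in part fixed in advance. The replicate block, the variance settings, the removal of dim probe sets and the fits to 4 arrays leave the difference itself unchanged. So does leaving out an array that is not in the comparison. The 6 lost calls came from fits without 1 array, 4 for the LTI30 interaction and 2 for LTI30 between the genotypes under SA. Without 1 array, the LTI30 interaction lay between −0.70 and −0.53 and the LTI30 difference under SA between −0.55 and −0.39; these fits hold 7 arrays in place of 8, and the cause was not otherwise tested. Without moderation of the variances, 3978 probe sets were called for SA in npr1-1 (6419 with moderation), 2996 for SA in Col-0 (5342) and 3607 for the genotypes in water (6134), while both dehydrins kept all their calls.

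With the water and SA labels of the npr1-1 arrays exchanged, an alternative chosen after seeing the data, COR47 was −0.73 and LTI30 1.28 for SA in npr1-1, LTI30 turned to 0.81 under SA, −1.13 in water and 1.95 for the interaction, and COR47 in water was −0.14 and not called. COR47 under SA (0.69) and its interaction (0.82) kept their direction and call, and 3608 probe sets were called for the interaction in place of 7274.

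The replicate number as a block changed no call of COR47 or LTI30. Under the replicate block their interactions were 2.29 and −0.62, and the probe sets called were 6242 for SA in npr1-1 and 5150 for SA in Col-0. Deviations of arrays with the same number correlated between groups at r = −0.19 to 0.08, and the labels do not say that a number marks a shared batch, so the arrays were not treated as pairs. For the other list genes too, part of the alternatives leave the difference itself unchanged. Of 888 alternative values for the 12 other list genes called in at least 1 comparison (genes called in none were not recomputed), 825 kept direction and threshold, 58 lost a call, 2 gained one and 3 turned direction. The 3 were all LEA4-5 between the genotypes under SA, which was 0.05 and not called, at −0.017 under quantile normalization, −0.082 with arrays centred on their median, and −0.0065 without npr1-1 SA replicate 2 (range without 1 array −0.0065 to 0.099). With 2 arrays a group, differences near 0.4 on the log2 scale passed or missed the test depending on the array left out.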
